A study of Mus musculus with 14 samples.

Results

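The genes described here are 10 that encode apolipoproteins or load lipid onto them: Apob and Mttp, Apoa1, Apoa2 and Apoa4, Apoc1, Apoc2 and Apoc3, Apoe, and Apom. They were chosen by symbol from a table of 54532 genes, with earlier results of these data known, and all 10 had enough counts to be tested. Liver RNA of C57BL/6J mice aged 52 weeks was sequenced in 14 libraries of 5 groups. The groups were wild-type female liver (n = 2, numbered 2 and 3), non-tumour tissue of Abcb11-/- females (n = 3), tumour tissue of Abcb11-/- females (n = 3), wild-type male liver (n = 3) and Abcb11-/- male liver (n = 3). Abcb11 encodes the bile salt export pump of the hepatocyte, and the labels do not say which stretch of the gene was deleted. They name no treatment, and a wild-type female numbered 1 was not analysed here. The design text gives 3 mice per group, but nothing says whether a tumour and a non-tumour library of the same number came from 1 animal. Where samples share an animal, p-values measure only the spread between these samples.

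Apolipoproteins are the proteins that wrap plasma lipid into particles and steer those particles to enzymes and receptors. The hepatocyte builds very low density lipoprotein (VLDL) by loading triglyceride onto the large protein APOB, a step catalysed by the microsomal triglyceride transfer protein that Mttp encodes, and it secretes APOA1 and APOA2 as the main proteins of high density lipoprotein. The small exchangeable APOC proteins regulate lipoprotein lipase, APOE binds hepatic receptors that take up remnant particles, APOA4 is made mainly in the intestine and is induced in fatty liver, and APOM carries sphingosine-1-phosphate on high density lipoprotein.

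The hepatocyte markers Alb, Ttr, Trf, Fgb, Fga, Cps1, Pck1 and Cyp2e1 summed to between 20636 and 74192 CPM (counts scaled to library size, here by the TMM method) in the 14 libraries, so liver RNA was present in each. Library totals ran from 14745140 to 19480538 counts, and 17874 genes passed the low-count filter. Abcb11 itself had 270 and 489 CPM in the 2 wild-type females, and all 9 knockout libraries lay below all 5 wild-type ones. Wild-type male 3 stood apart from its group: mitochondrial transcripts took 42.2% of its counts, against 28.6% and 33.9% in wild-type males 1 and 2. Its log2 CPM correlated with those of wild-type males 1 and 2 at 0.879 and 0.875, and those 2 libraries with each other at 0.918. The lowest mitochondrial shares were 15.7% in knockout male 3, 16.7% in non-tumour library 3 and 19.1% in non-tumour library 1. In non-tumour liver and tumour, library number 1 carried acute-phase transcripts (Saa1, 2685 and 1299 CPM) that reached at most 243 CPM elsewhere. A score of daily clock genes ran from −2.07 to −1.41 in wild-type males and from 2.60 to 3.49 in knockout males. It was 1.49 and 0.82 in wild-type females. In libraries 1, 2 and 3 it was −0.35, 3.13 and 4.70 in non-tumour liver and −0.03, 2.34 and 4.11 in tumours. Clock phase therefore cannot be told apart from genotype between the male groups, nor from sex between the wild-type groups. Another scaling (RLE) moved the median log2 fold change of all genes from 0.11 to 0.00 in knockout against wild-type males and from −0.12 to −0.01 in wild-type males against females.

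Of the 10 genes, 6 lie in 2 clusters. On chromosome 9 of GRCm38, Apoa1 (chr9:46228580-46230466), Apoc3 (chr9:46232933-46235636, on the opposite strand), Apoa4 (chr9:46240696-46243459) and Apoa5, which is no member of the set, share 43340 bases. On chromosome 7, Apoc2 (chr7:19671579-19677941), Apoc4, Apoc1 (chr7:19689481-19692660) and Apoe (chr7:19696109-19699188) lie on the minus strand within 27610 bases. RefSeq promoter windows (GRCm38.p6, from 250 bases before the start to 50 after it) matched 8 of the 10 genes. The windows of 2 neighbours on chromosome 9 are shown because the results turn on how differently these genes varied. Capitals mark a match to CAAAGTNCA, the core of the recognition sequence of the liver factor HNF4A, searched on both strands. It begins 182 bases before the start site of Apoa4.

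Apoa4 promoter, chr9:46240594-46240893, plus strand: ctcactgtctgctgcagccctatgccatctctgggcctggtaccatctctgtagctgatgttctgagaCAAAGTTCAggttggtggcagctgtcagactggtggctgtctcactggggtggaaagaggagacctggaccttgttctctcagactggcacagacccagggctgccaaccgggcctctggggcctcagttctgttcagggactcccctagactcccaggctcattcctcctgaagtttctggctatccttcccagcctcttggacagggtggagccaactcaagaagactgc
Apoa1 promoter, chr9:46228380-46228679, plus strand: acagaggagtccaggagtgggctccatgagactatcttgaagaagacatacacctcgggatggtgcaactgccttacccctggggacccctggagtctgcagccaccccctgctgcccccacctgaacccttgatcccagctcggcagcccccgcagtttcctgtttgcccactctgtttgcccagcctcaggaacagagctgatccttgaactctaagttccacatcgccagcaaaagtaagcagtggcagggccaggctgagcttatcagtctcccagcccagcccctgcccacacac

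Of the 32851 RefSeq promoter windows of this length, 464 (1.41%) held CAAAGTNCA, and of the 8 members with a window it was found in Apoa4 alone; Apoc1 and Apoc3 were not searched. The letters TATAAA were in 4473 windows (13.6%), among them those of Apoa2, Apob and Apoe. A match of letters is a description of the window and not a binding site.

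Per gene length, in the authors' FPKM values (fragment counts scaled to gene length and library size), 5 of the members were among the 24 most abundant transcripts of every library. Apoa2 had the highest median FPKM, 17087 over the 14 libraries, and ranked between 4 and 11 among all genes. Apoa1 followed with a median of 9056 FPKM, Apoe with 7883, Apoc1 with 4789 and Apoc3 with 2614. Apoa1 and Apoe crossed over from library to library, with ranks of 6 to 16 and 6 to 17. The other members lay far lower: Apoa4 had a median of 140 FPKM, Apob 121, Apom 24.3, Mttp 20.9 and Apoc2 8.90. The Apoc2 value may describe only a part of the gene, because 646 of its 813 exonic bases also belong to another gene, as described below. Its place among the members may therefore not follow the abundance of its coding transcript. Apoa4 ranked anywhere between 23 and 1509. Together the 10 genes took between 2.90% and 6.30% of all counts in a library. The lowest shares were those of wild-type female 3 (2.90%), wild-type male 3 (3.06%) and wild-type female 2 (3.77%), and each of the other libraries lay at 4.66% or above.

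**Figure D1:**
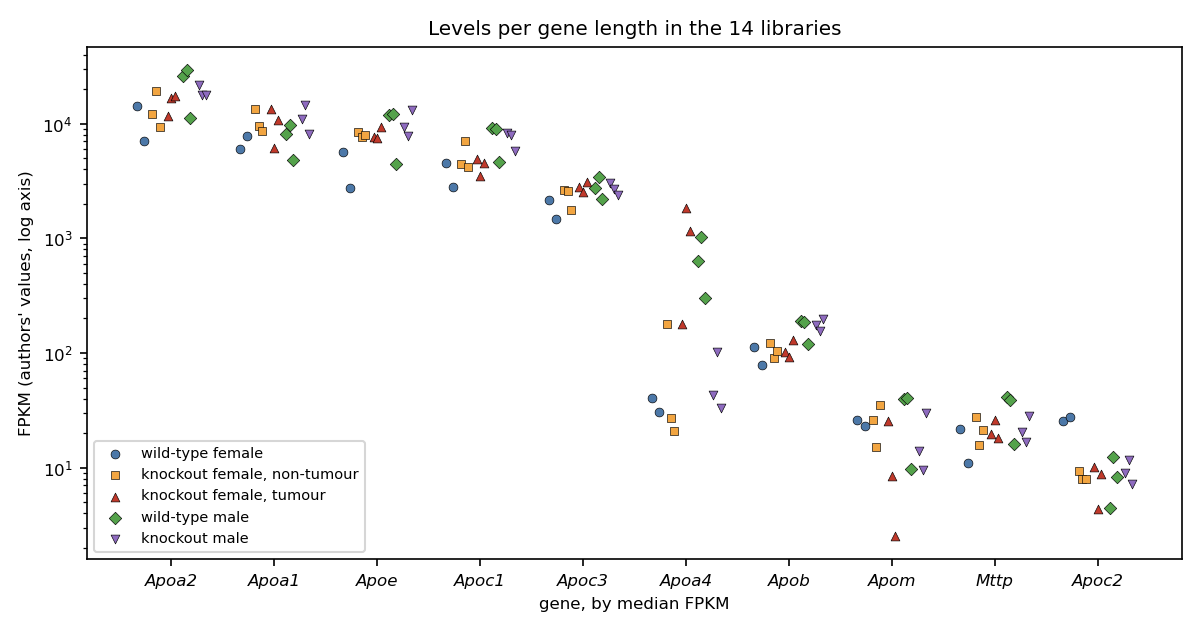
FPKM as deposited by the authors (log axis) of the 10 genes in the 14 libraries, 1 symbol per library, genes ordered by median. Apoa2 to Apoc3 stay above 1000 FPKM in every library, Apoa4 runs from 21.0 to 1841, and the 2 wild-type female libraries are the highest for Apoc2.

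The 7 comparisons were fitted together in edgeR, with p-values adjusted over all 17874 genes by Benjamini-Hochberg and a threshold of 0.05. Between non-tumour knockout liver and wild-type female liver, 1 of the 10 genes passed (Apoc2, lower), where 4.16% of all genes did. Between tumour and non-tumour tissue none of the 10 passed in edgeR and 0% of all genes did; Apoa4 alone had an unadjusted p under 0.05 (6.81% of all genes), DESeq2 called 1 member (Apoa4) and limma-voom none. Between tumour and wild-type female liver 2 passed (Apoa4 higher, Apoc2 lower), against 9.61% of all genes. In knockout against wild-type males 1 passed (Apoa4, lower), against 20.6% of all genes. In wild-type males against wild-type females 2 passed (Apoa4 higher, Apoc2 lower), against 23.1%. Between knockout males and non-tumour knockout females none passed in edgeR, DESeq2 or limma-voom, against 0.392% of all genes, and Apob alone had an unadjusted p under 0.05 (9.69% of all genes). The knockout effect differed between the sexes for 1 of the 10 (Apoc2), against 10.9% of all genes. Fold changes are given on the log2 scale with an SE derived from edgeR's F statistic. These comparisons share groups, the 2 wild-type female libraries above all, so their values are given side by side and do not support each other.

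The other 8 genes passed in none of the 7 comparisons in edgeR. Of these, Apoc1 and Apoe in wild-type males against females (36.1% of all genes) and Apob in knockout males against non-tumour females had an unadjusted p under 0.05, and DESeq2 called Apoa2, Apob, Apoc1 and Apoe in wild-type males against females, while limma-voom called none of the 8. The median log2 fold change of the 10 was 0.40 in non-tumour knockout against wild-type females, where the median of all genes was 0.00, and 9 of the 10 estimates were above 0, as were 49.9% of those of all genes. In wild-type males against wild-type females the median was 0.78 (all genes −0.12), again with 9 above 0 (all genes 45.7%). In tumour against non-tumour tissue it was −0.01 (all genes −0.01) with 5 above 0 (49.4%), and in knockout against wild-type males 0.08 (all genes 0.11) with 6 above 0 (54.4%). Each of the comparisons with a median of 0.40 or more involved the wild-type females, whose 2 libraries were among the 3 with the lowest shares of counts taken by the set.

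**Figure D2:**
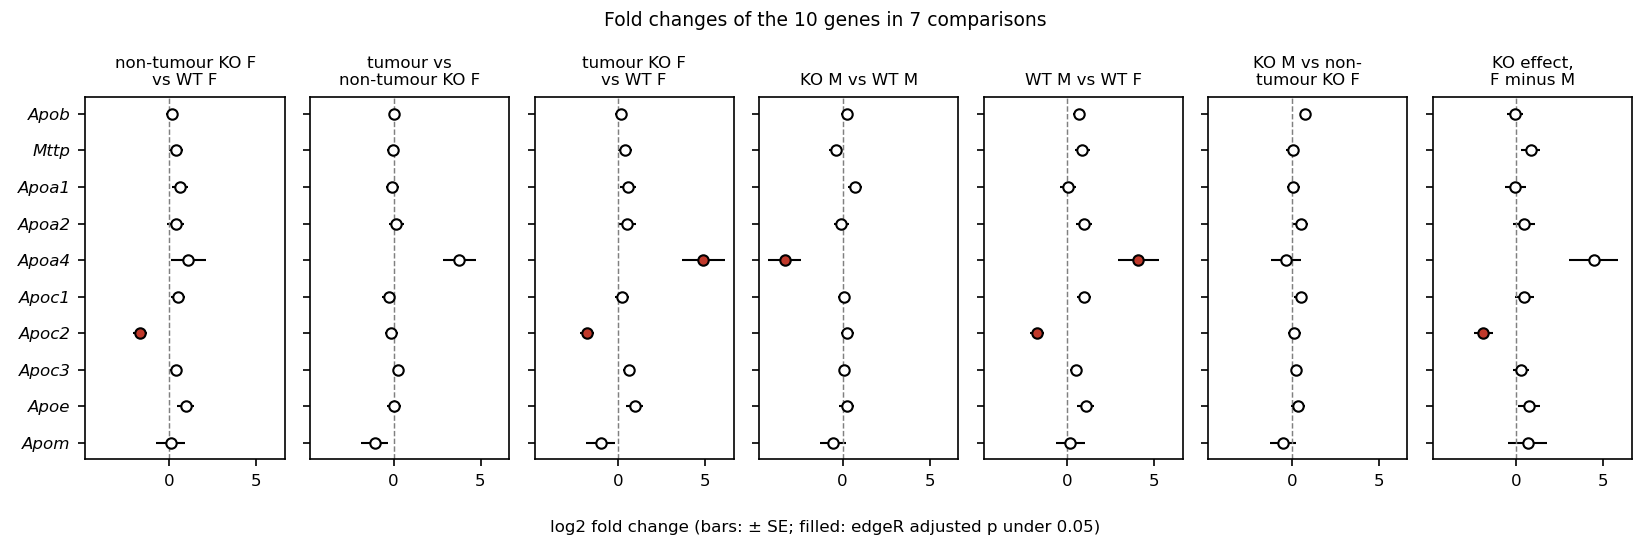
Log2 fold change (x axis) of each of the 10 genes (rows) in the 7 comparisons (panels), bars ± SE, filled where edgeR's adjusted p is under 0.05. Apoa4 and Apoc2 hold every filled symbol, and the estimates of the other 8 genes lie between −1.09 and 1.07.

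Apob and Mttp form the assembly step. Apob, the structural protein of VLDL, stood at 1641 and 1173 CPM in the wild-type females and at 1843, 1342 and 1552 CPM in non-tumour knockout liver. Tumours had 1528, 1354 and 1914 CPM, wild-type males 2599, 2543 and 1690 CPM, and knockout males 2621, 2313 and 3084 CPM. The 3 female groups overlapped throughout, and both male groups lay above them except wild-type male 3, which fell within the range of the females. By mean the order was knockout males (2673 ± 388 CPM, SD, n = 3), wild-type males (2277 ± 509), tumours (1599 ± 287), non-tumour liver (1579 ± 252) and wild-type females (1407 ± 331, n = 2), and each neighbouring pair overlapped. Knockout males exceeded non-tumour knockout females in every library, with a log2 fold change of 0.76 ± 0.31 (edgeR adjusted p = 0.407), so the difference did not pass, while 19.8% of all genes did not overlap in that comparison.

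Mttp, whose product transfers lipid to nascent APOB in the endoplasmic reticulum, had 141 and 73.3 CPM in wild-type females, 103 to 184 CPM in non-tumour liver and 120 to 168 CPM in tumours. Wild-type males had 252, 234 and 101 CPM, and knockout males had 135, 111 and 195 CPM. All 5 groups overlapped in part. The largest estimate was between wild-type males and females, 0.87 ± 0.41 on the log2 scale (edgeR adjusted p = 0.145). A part of the Mttp exons overlaps genes on the opposite strand, Trmt10a and Gm43691, and whether the counting used strand is not given in the sources used here.

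Among the genes of high density lipoprotein, Apoa1, its main protein and the activator of lecithin-cholesterol acyltransferase, had 7746 and 10199 CPM in wild-type females. Non-tumour knockout liver had 17651, 12541 and 11316 CPM, tumours 17590, 7990 and 14204 CPM, wild-type males 9774, 11752 and 6030 CPM, and knockout males 14384, 19038 and 11094 CPM. Every non-tumour library lay above both wild-type females, as 49.7% of all genes lay apart in one direction or the other in that comparison. The estimate was 0.62 ± 0.46 on the log2 scale (edgeR adjusted p = 0.464), and in knockout against wild-type males, whose ranges overlapped, it was 0.69 ± 0.40 (edgeR adjusted p = 0.240). Apoa2, the other abundant protein of that particle, ranged from 4019 to 7998 CPM in wild-type females, 5358 to 11003 in non-tumour liver, 6727 to 9891 in tumours, 6082 to 15227 in wild-type males and 10142 to 12323 in knockout males. Knockout males lay just above the tumours, and the other neighbours in the order of means overlapped. The largest estimate was 0.96 ± 0.49 in wild-type males against females (edgeR adjusted p = 0.167).

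Apoa4, an exchangeable apolipoprotein of chylomicrons and high density lipoprotein, had the widest range of the 10 genes. It had 76.6 and 59.4 CPM in the wild-type females and 347, 52.4 and 40.8 CPM in non-tumour libraries 1, 2 and 3. In tumours 1, 2 and 3 it had 348, 3500 and 2251 CPM. Wild-type males had 1131, 1798 and 562 CPM, and knockout males 83.1, 198 and 66.7 CPM. Every tumour and every wild-type male lay above every wild-type female and every knockout male, and tumour 1 and non-tumour 1 were nearly equal. Against wild-type females, 52.4% of all genes did not overlap in tumours and 48.9% in wild-type males. By mean the order was tumours (2033 ± 1587 CPM, SD, n = 3), wild-type males (1163 ± 619), non-tumour liver (147 ± 174), knockout males (116 ± 71.4) and wild-type females (68.0 ± 12.2, n = 2). Tumours and wild-type males overlapped, as did the 3 lower groups.

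Apoa4 was 29.9-fold higher in tumours than in wild-type female liver (log2 4.90 ± 1.23, edgeR adjusted p = 0.0276). The call was lost without wild-type female 2 (adjusted p = 0.158), wild-type female 3 (0.290), tumour 2 (0.0676) or tumour 3 (0.0544) in the same edgeR test. Against non-tumour tissue the estimate was 3.79 ± 0.97 on the log2 scale, and edgeR's adjusted p of 0.665 did not pass, although the groups did not overlap, as was the case for 14% of all genes. Tumour minus non-tumour differences by library number were 0.00, 6.06 and 5.78 on the log2 scale for numbers 1, 2 and 3. With both libraries of number 1 left out the estimate was 5.95 (edgeR adjusted p = 0.0107), so the edgeR call depended on that pair. With any 1 library left out it did not pass in edgeR (adjusted p of 0.0800 or more). DESeq2, run with the same low-count filter, called Apoa4 with all libraries. Without that filter Apoa4 passed in edgeR with all libraries (3.77, adjusted p = 7.84e-15), although its estimate hardly moved. In that setting 338 of 28842 genes passed, against 0 of 17874 with the filter. The reason for the smaller adjusted p was not tested. Non-tumour 1 also held up the estimate against wild-type females, 1.11 ± 1.01 (edgeR adjusted p = 0.576), which was −0.50 without it.

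In males, which had no tumour group, the estimate had the opposite sign to that of tumours against wild-type females. The non-tumour female comparison, which entered the difference between the sexes, gave no call, as stated above. Apoa4 fell in knockout against wild-type males (log2 fold change −3.33 ± 0.95, edgeR adjusted p = 0.0273), with no overlap between the 3 and 3 libraries, where 35.3% of all genes did not overlap. The call was lost without knockout male 1 (edgeR adjusted p = 0.0906), knockout male 3 (0.103) or wild-type male 2 (0.0593), and in limma-voom (0.0621). Wild-type males exceeded wild-type females 17.1-fold (log2 4.10 ± 1.18, edgeR adjusted p = 0.0257), a call that was lost without wild-type female 2 (0.138) or 3 (0.186). The knockout effect in females minus that in males was 4.44 ± 1.41 on the log2 scale (edgeR adjusted p = 0.063), so the difference between the sexes did not pass for Apoa4. It passed in DESeq2 (adjusted p = 0.0100), without the low-count filter, and when the tumour libraries were left out of the edgeR fit (adjusted p = 0.0411). The clock score differed between the male groups without overlap, as given above, and its part in the fall of Apoa4 was not tested.

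**Figure D3:**
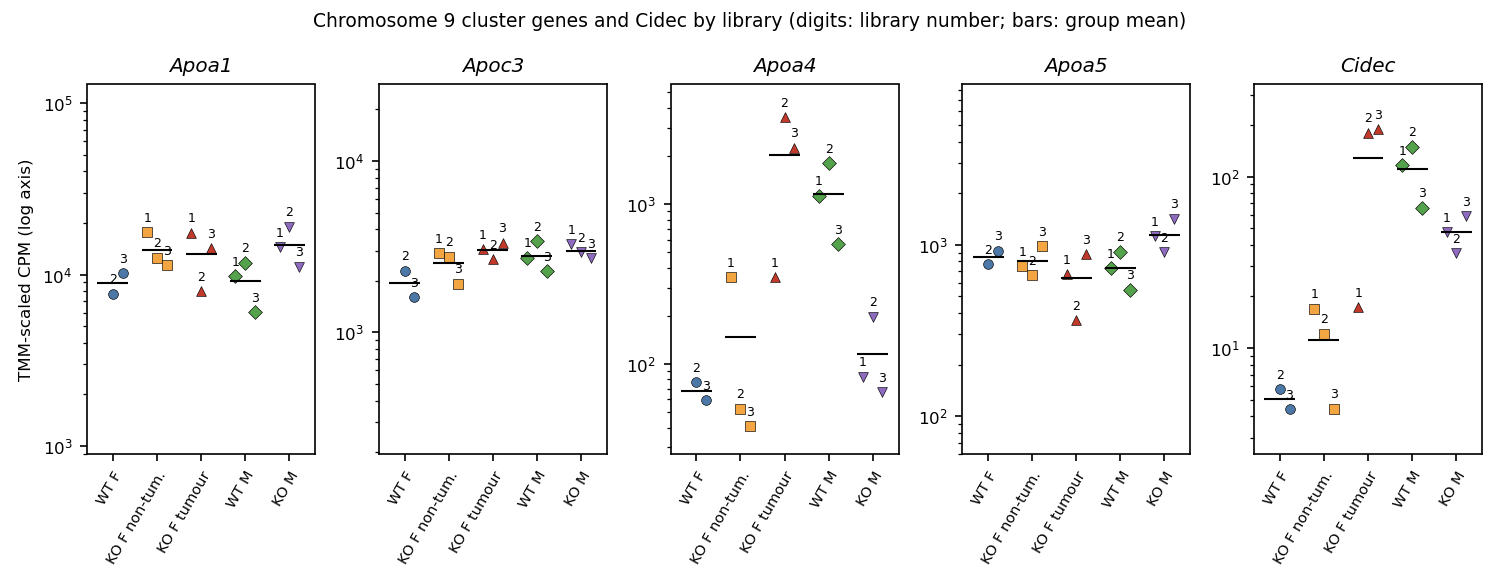
TMM-scaled CPM (log axes) of the 4 chromosome 9 cluster genes and of Cidec by group, 1 symbol per library with its number, horizontal bars at the group mean. Apoa4 and Cidec are low in tumour 1 and high in tumours 2 and 3, while Apoa1, Apoc3 and Apoa5 stay within a narrow band.

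The neighbours of Apoa4 did not share its range. Apoc3, which inhibits lipoprotein lipase and is separated from Apoa4 by 5059 bases, ran from 1601 to 3395 CPM over all 14 libraries. Apoa5, an activator of that lipase on the far side, ran from 364 to 1418 CPM. In FPKM, Apoa4 stood at 0.673% and 0.396% of Apoa1 in the wild-type females, at 1.34%, 0.285% and 0.245% in non-tumour libraries 1, 2 and 3, and at 1.35%, 29.8% and 10.8% in tumours 1, 2 and 3. It reached 7.88%, 10.4% and 6.34% of Apoa1 in wild-type males and no more than 0.707% in knockout males.

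Cidec, a lipid droplet protein on the list of VLDL assembly factors, had 17.3, 180 and 189 CPM in tumours 1, 2 and 3 and 17.0, 12.1 and 4.43 CPM in non-tumour liver. It had 116, 150 and 66.0 CPM in wild-type males, 47.2, 35.7 and 58.9 in knockout males and at most 5.74 in wild-type females. Like Apoa4, it was highest in tumours 2 and 3 and in wild-type males, and its difference from wild-type females was 4.67 ± 0.96 in tumours on the log2 scale (edgeR adjusted p = 0.0133). APOA4 is also an intestinal protein, and of the enterocyte markers Cdx2 and Sis had no counts in any library, Lct reached at most 0.81 CPM and Alpi had counts in 1 library. Fabp2, another marker on that list, had 18.5, 166 and 93.9 CPM in tumours 1, 2 and 3. It had 21.8 to 45.7 CPM in wild-type females and 14.9 to 28.7 in non-tumour liver. Wild-type males had 25.3 to 59.7 CPM and knockout males 49.8 to 70.9. Fabp2 was the largest part of the summed enterocyte list in every library, and 3 of the 7 genes of that list were tested. The sum ran from 24.8 to 51.0 CPM in wild-type females, 26.5 to 37.0 in non-tumour liver, 26.2 to 183 in tumours, 28.5 to 61.4 in wild-type males and 50.9 to 73.3 in knockout males. Of Apoa4's 1815 exonic bases, 634 overlap the antisense gene Gm47528, which had between 18 and 950 counts, so reads of the 2 genes cannot be told apart where strand was not used. Another antisense gene, Gm10680, overlaps 632 of the 1815 bases and had no counts in any library.

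Among the regulators of lipoprotein lipase, Apoc2, the activator of the enzyme, showed the other pattern that passed the test. It had 21.8 and 24.04 CPM in the 2 wild-type females. Non-tumour knockout liver had 8.13, 6.88 and 7.01 CPM, tumours 8.84, 3.68 and 7.55 CPM, wild-type males 3.56, 9.88 and 6.91 CPM, and knockout males 7.81, 10.2 and 6.56 CPM. Both wild-type females lay above all 12 other libraries, and those 12 overlapped whatever their group. The share of all genes that did not overlap with wild-type females was 49.7% in non-tumour liver, 52.4% in tumours and 48.9% in wild-type males. By mean, knockout males (8.18 ± 1.83 CPM), non-tumour liver (7.34 ± 0.688), wild-type males (6.78 ± 3.16) and tumours (6.69 ± 2.69, each SD, n = 3) followed wild-type females (22.9 ± 1.61, n = 2).

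The level of Apoc2 was 3.12-fold lower in non-tumour knockout liver than in wild-type female liver (log2 −1.64 ± 0.40, edgeR adjusted p = 0.0355). That call was lost when any of the 5 libraries was left out (edgeR adjusted p between 0.0642 and 0.423). In tumours it was 3.43-fold lower than in wild-type females (log2 −1.78 ± 0.40, edgeR adjusted p = 0.0149), lost without wild-type female 2 (0.0571), wild-type female 3 (0.162) or tumour 2 (0.0590). In wild-type males it was 3.38-fold lower than in wild-type females (log2 −1.76 ± 0.40, edgeR adjusted p = 0.00692), lost without wild-type female 3 (0.0725). Knockout and wild-type males overlapped. The knockout effect in females minus that in males was −1.91 ± 0.55 (edgeR adjusted p = 0.0375) and lost its call without any one of 9 of the 11 libraries; it remained past the threshold without wild-type male 2 (0.0232) or knockout male 3 (0.0403).

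The Apoc2 values may describe only a part of the gene. In the GRCm38 annotation (GENCODE M21), 646 of the 813 exonic bases of Apoc2 (79.46%), and all of its 291 coding bases, also belong to Gm44805, a read-through gene on the same strand that joins Apoc4 and Apoc2. The bases of Apoc2 alone are 5 at its 3′ end, 86 in the first exon of Apoc2-202 (chr7:19673835-19673920) and 76 in the first exon of Apoc2-203 (chr7:19677866-19677941). Apoc2 had 349 and 499 counts in the wild-type females and between 55 and 155 in the other libraries, while Gm44805 had none in 13 libraries and 13 in wild-type male 2. Its neighbour Apoc4 had 11296 to 30339 counts. How reads that fit more than 1 gene were treated is not given in the sources used here, so the Apoc2 values may not follow the abundance of its coding transcript. Malat1, a nuclear RNA, was also highest in the wild-type females (1306 and 1707 CPM, against 129 to 834 elsewhere), and its part in the Apoc2 values was not tested.

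**Figure D4:**
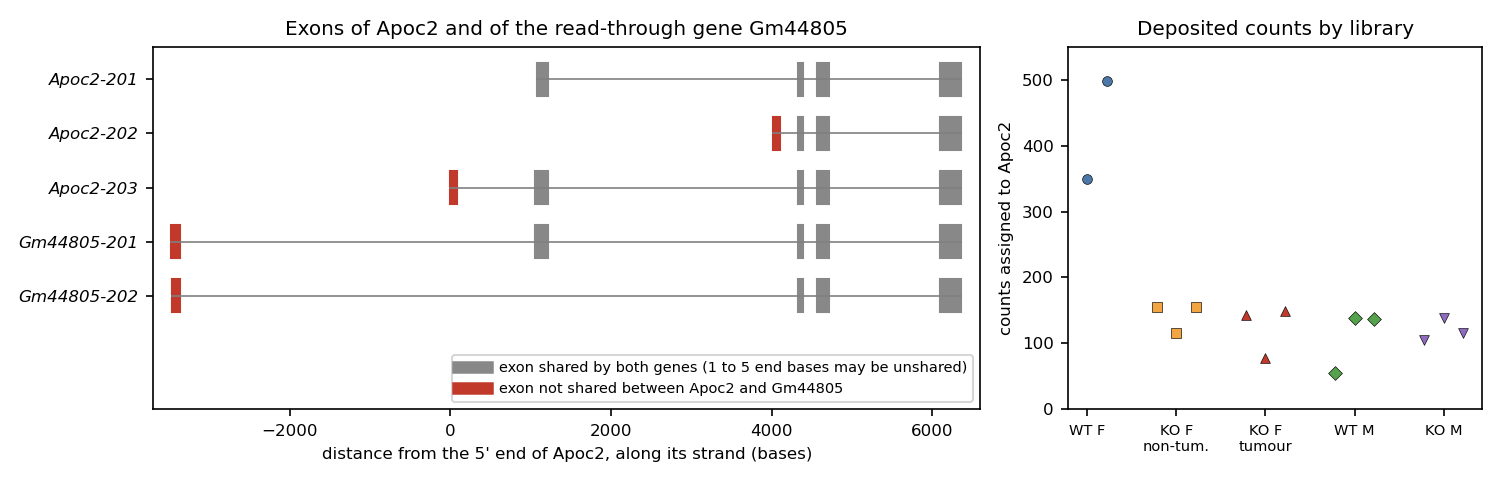
Left, exons of the annotated transcripts of Apoc2 and Gm44805 by distance from the 5′ end of Apoc2, grey where shared by both genes and red where not. Right, counts assigned to Apoc2 in each library by group: the 2 wild-type females have 349 and 499 and every other library 155 or fewer.

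Apoc1, which inhibits lipid uptake and cholesteryl ester transfer, had 3501 and 2226 CPM in wild-type females, 3365 to 5566 CPM in non-tumour liver and 2722 to 3935 CPM in tumours. Wild-type males had 6737, 6491 and 3514 CPM, and knockout males 6579, 6337 and 4780 CPM. All wild-type males lay above both wild-type females, as 48.9% of all genes lay apart in that comparison, and the estimate was 0.96 ± 0.42 on the log2 scale (edgeR adjusted p = 0.110). Apoc3 had 2286 and 1601 CPM in wild-type females and 3055, 2664 and 3337 CPM in tumours, which did not overlap (log2 0.64 ± 0.35, edgeR adjusted p = 0.258, where 52.4% of all genes did not overlap). Non-tumour liver (1920 to 2899 CPM) and wild-type males (2279 to 3395) overlapped both of these groups, and knockout males (2717 to 3279) lay above the wild-type females.

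Apoe, the receptor ligand that clears remnant particles, had 12562 and 6315 CPM in wild-type females. Non-tumour knockout liver had 19317, 17143 and 18254 CPM, tumours 17445, 16882 and 21036 CPM, wild-type males 24921, 25018 and 9614 CPM, and knockout males 21121, 17827 and 31110 CPM. Both wild-type females lay below every library of the other groups except wild-type male 3, which fell between them. Of all genes, 49.7% did not overlap between wild-type females and non-tumour liver, and 52.4% between wild-type females and tumours. The estimates against wild-type females were 0.95 ± 0.49 in non-tumour liver (edgeR adjusted p = 0.278), 0.97 ± 0.49 in tumours (0.219) and 1.07 ± 0.49 in wild-type males (0.127), and none passed. Macrophages also make APOE: the summed level of 12 macrophage and Kupffer cell markers was 140 to 163 CPM in wild-type females, 334 to 619 in non-tumour liver, 338 to 495 in tumours, 267 to 554 in wild-type males and 228 to 443 in knockout males. Of the 12, Csf1r (1.26 ± 0.28), C1qa (1.94 ± 0.44) and Cd5l (1.82 ± 0.47) rose on the log2 scale in non-tumour knockout against wild-type females in edgeR, and their part in the Apoe values was not tested. In these bulk samples a change in the number of cells of a type and a change in RNA per cell cannot be told apart.

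Apom had 27.3 and 24.9 CPM in wild-type females, 28.5, 16.2 and 38.5 CPM in non-tumour liver and 27.6, 8.99 and 2.74 CPM in tumours 1, 2 and 3. Wild-type males had 39.6, 39.6 and 10.04 CPM, and knockout males 15.2, 10.3 and 34.0 CPM. Tumours 2 and 3 held the 2 lowest values of the 14 libraries, while tumour 1 lay within the non-tumour range. Tumour minus non-tumour differences by number were −0.05, −0.84 and −3.76 on the log2 scale. The estimate over the groups was −1.09 ± 0.76 (edgeR adjusted p = 0.872), and it passed without the low-count filter (−1.12, edgeR adjusted p = 0.0108), as did the estimate in tumours against wild-type females (−0.96, adjusted p = 0.0283, against 0.477 with the filter). Without the filter, 338 of 28842 genes passed in tumour against non-tumour tissue, against 0 of 17874 with it. In tumours against wild-type females these were 2516 of 28842 and 1718 of 17874.

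The number of members called between wild-type males and females changed with wild-type male 3, with the method and with the wild-type females. Wild-type male 3 had the lowest level of its group for 9 of the 10 genes, Apoc2 being the exception. Among all genes, DESeq2 called 5104 of 17721 in that comparison with all libraries. In edgeR, 4137 of 17874 passed with wild-type male 3 and 4775 of 17604 without it. Without it, edgeR called 7 members in that comparison: Apoa2 (1.41, adjusted p = 0.0344), Apoa4 (4.57, 0.0237), Apob (1.01, 0.0472), Apoc1 (1.34, 0.0261), Apoe (1.54, 0.0203) and Mttp (1.32, 0.0204) as higher on the log2 scale in wild-type males, and Apoc2 (−1.63, 0.0183) as lower. DESeq2 with all libraries called 6, these without Mttp. In the other direction, leaving out wild-type female 2 left 1 call and leaving out wild-type female 3 left none, so the calls rest on a pair of control libraries.

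**Figure D5:**
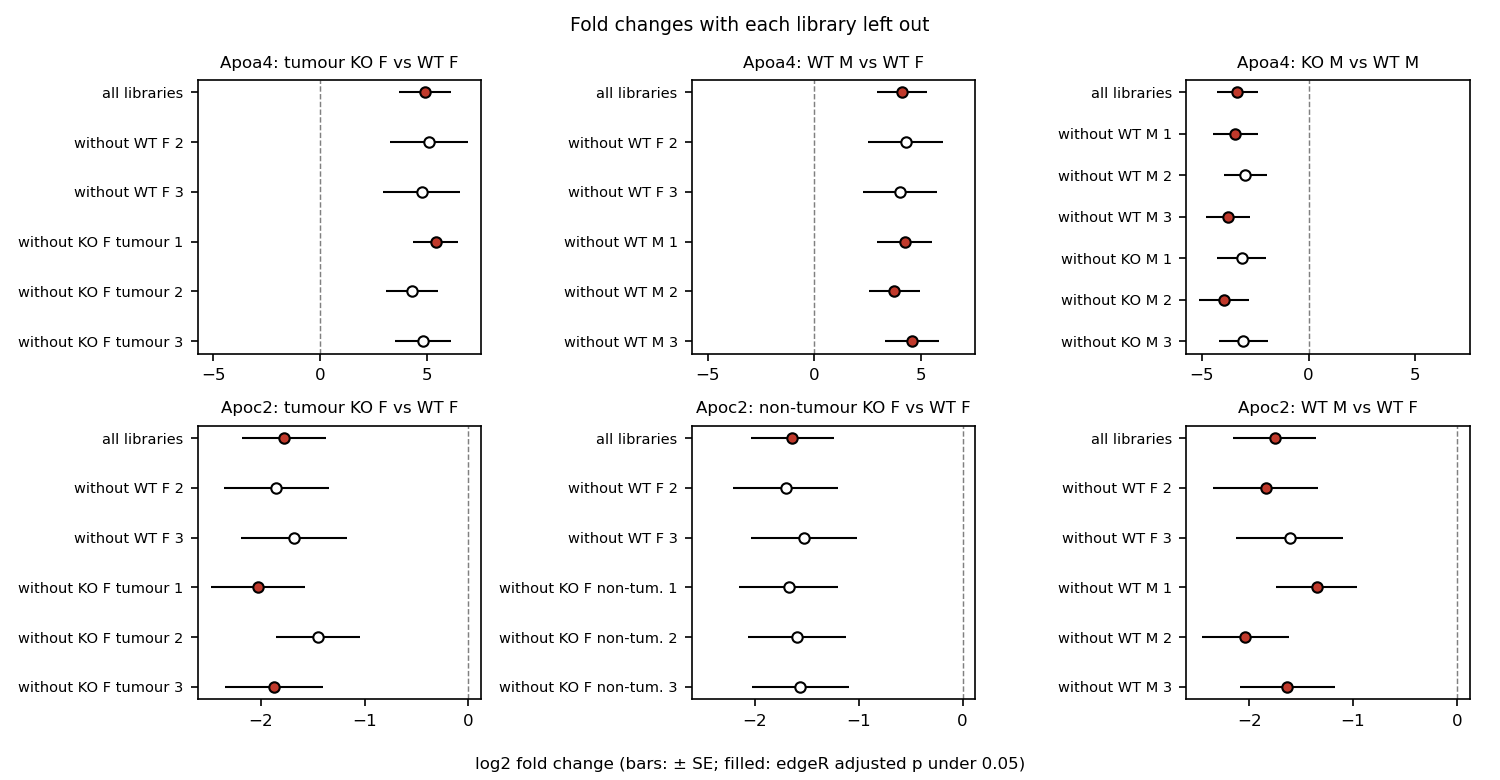
Log2 fold change (x axis, bars ± SE) of Apoa4 and Apoc2 in the 6 comparisons of a pair of groups in which they passed (the Apoc2 difference between the sexes is not drawn), with all libraries and with each library left out in turn, filled where edgeR's adjusted p is under 0.05. The direction is the same in every row, and every panel has an open symbol, among them the row without wild-type female 3 in each of the 5 panels that involve that group.

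Over the 14 libraries, 33 of the 45 pairs of members had a positive Pearson correlation of log2 CPM (median 0.24), and 37 were positive after each group's mean was removed (median 0.33). Within groups Apob and Apoe had the highest value (0.90), followed by Apoe and Mttp (0.88) and Apoa2 and Apoc1 (0.79). Apoc2 and Mttp had the lowest (−0.35), followed by Apoa4 and Apom (−0.30). These pairs share libraries, wild-type male 3 among them, and the values are descriptions. Of 9784 protein-coding genes searched, the pattern most like that of Apoa4 over the 14 libraries was that of Tubb2a (r = 0.94) and Adamts1 (0.89). For Apoc2 it was Zfp395 (0.90) and Nfyb (0.89), and for Apoe Fam162a (0.98) and Serpina1b (0.96). Apob was most like Cfhr2 (0.92) and Cyp2d10 (0.92), Mttp like Saysd1 (0.91) and Tusc2 (0.90), and Apoa2 like Atp5e (0.91) and Ndufa13 (0.91). Apoc3 was nearest to Rex1bd (0.95) and Uqcc2 (0.92), Apoc1 to Tmem205 (0.90) and Hint2 (0.88), Apoa1 to 2310030G06Rik (0.87) and Zdhhc12 (0.82), and Apom to Slc1a2 (0.84) and Slc16a10 (0.83).

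Of 16 other apolipoprotein genes, 13 were tested. In knockout against wild-type males 4 of them rose in edgeR: Apol7a (2.99 ± 0.31), Apol9a (2.33 ± 0.40), Apoo (1.80 ± 0.32) and Apol9b (1.76 ± 0.33, log2 scale). In tumours against wild-type females Apol7a (−1.32 ± 0.32), Apol9b (−1.45 ± 0.36) and Apol9a (−1.55 ± 0.42) fell. The 2 that differed in wild-type males against wild-type females were lower there, Apol7a (17.5 against 179 CPM by mean, log2 −3.36 ± 0.33) and Apol9a (23.1 against 63.3 CPM, −1.45 ± 0.42). The knockout effect in females minus that in males passed for Apol7a, Apol9a and Apol9b (−3.78, −2.75 and −2.13 on the log2 scale). Apol9a and Apol9b are near-identical copies, so reads may be split between them. The counts of 4 and 3 stayed at 4 without wild-type male 3 and at 3 without both libraries of number 1, alternatives for these lists that were chosen after seeing the data. None of the 13 passed in non-tumour knockout against wild-type females or in tumours against non-tumour tissue in edgeR, with 3 and 2 at an unadjusted p under 0.05 (21.2% and 6.81% of all genes). Of all genes, 20.6% passed in knockout against wild-type males, 9.61% in tumours against wild-type females and 23.1% in wild-type males against females. The share was 10.9% for the difference between the sexes.

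Of 24 factors of VLDL assembly and secretion, 7 rose and 1 fell in knockout against wild-type males, where Ces3b, a lipase of the endoplasmic reticulum, had the smallest p (2.44 ± 0.32 on the log2 scale, edgeR adjusted p = 0.000186). Ces3b was also the 1 factor called in knockout males against non-tumour knockout females (2.69 ± 0.32, edgeR adjusted p = 0.000696), and its knockout effect in females minus that in males was −2.55 ± 0.45 (edgeR adjusted p = 0.00320). Cideb, a droplet protein needed for lipid loading of VLDL, rose as well in knockout males (2.37 ± 0.58), and Dgat1, a triglyceride synthase, fell (−0.74 ± 0.21). In tumours against wild-type females 4 rose and 2 fell: Cidec, Surf4 (1.22 ± 0.33), the cargo receptor of lipoproteins, P4hb (1.38 ± 0.38), the partner subunit of the Mttp product, and Pdia3 (1.12 ± 0.33) were higher, and A1cf (−2.70 ± 0.48), a cofactor of Apob mRNA editing, and Mia3 (−0.93 ± 0.25) lower. In wild-type males against females 5 rose and 3 fell. Without wild-type male 3, 2 rose (Ces3b and Cideb) and 1 fell (Dgat1) in knockout against wild-type males. Without both libraries of number 1, 1 rose (Cidec) and 1 fell (A1cf) in tumours against wild-type females, and Cidec also passed in tumours against non-tumour tissue (4.49, edgeR adjusted p = 0.0107). None of the 24 passed in non-tumour knockout against wild-type females or in tumours against non-tumour tissue in edgeR, with 10 and 4 at an unadjusted p under 0.05 (21.2% and 6.81% of all genes). Of all genes, 20.6% passed in knockout against wild-type males, 9.61% in tumours against wild-type females and 23.1% in wild-type males against females. The share was 0.392% in knockout males against non-tumour knockout females and 10.9% for the difference between the sexes.

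Of 29 tested receptors, enzymes and transporters of lipoproteins, 10 rose and 1 fell in knockout against wild-type males. The high density lipoprotein receptor gene Scarb1 (2.21 ± 0.39) and the cholesterol exporter gene Abca1 were among the higher, and Angptl4 (−1.64 ± 0.38), an inhibitor of lipoprotein lipase, was lower on the log2 scale. Without wild-type male 3, 7 rose and 3 fell. In non-tumour knockout against wild-type females Lpl, the lipase that Apoc2 activates, rose (4.94 ± 0.84, edgeR adjusted p = 0.0126) and Lipg, endothelial lipase, fell (−3.07 ± 0.72, edgeR adjusted p = 0.0318). Lpl had 13.3 and 10.4 CPM in wild-type females, 523, 241 and 324 CPM in non-tumour liver and 684, 108 and 97.0 CPM in tumours, with no overlap between knockout and wild-type females. Of all genes, 49.7% did not overlap between wild-type females and non-tumour liver, and 52.4% between wild-type females and tumours. Without both libraries of number 1, Lpl stayed past the threshold (edgeR adjusted p = 8.31e-05) and Lipg did not (0.0999). In tumours against wild-type females 2 rose and 5 fell, and in wild-type males against females 1 rose and 7 fell. Between tumour and non-tumour tissue none passed in edgeR, with 5 at an unadjusted p under 0.05 (6.81% of all genes). Of all genes, 20.6% passed in knockout against wild-type males and 23.1% in wild-type males against females. Against wild-type females, 4.16% passed in non-tumour knockout liver and 9.61% in tumours.

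Of 35 transcription factors known to act on apolipoprotein genes, 5 fell and none rose in non-tumour knockout against wild-type females, among them Ppara (−2.14 ± 0.38 on the log2 scale), Foxa1 (−1.28 ± 0.25), Nr5a2 (−1.07 ± 0.27) and Prox1 (−0.87 ± 0.21). Without both libraries of number 1, only Ppara of these 5 remained past the threshold in edgeR (adjusted p = 0.0260), with 1 fall and 1 rise in the list. In tumours against wild-type females 10 fell and none rose, and 7 fell and 1 rose without those libraries. In wild-type males against females 14 fell and 1 rose, and in knockout against wild-type males 10 rose and 3 fell, with Esr1 (1.71 ± 0.27) and Ppargc1a (2.62 ± 0.42) among the higher. Of all genes, 4.16% passed in non-tumour knockout and 9.61% in tumours against wild-type females, of which 404 of 743 and 1013 of 1718 were lower. In wild-type males against females 23.1% passed, with 2880 of 4137 lower. In knockout against wild-type males 20.6% passed, with 2558 of 3688 higher. The Apoa4 window shown above holds an HNF4A core, and Hnf4a itself had 299 and 366 CPM in wild-type females, 299 to 350 in non-tumour liver, 201 to 328 in tumours, 268 to 369 in wild-type males and 357 to 382 in knockout males. It passed in none of the comparisons in edgeR, with adjusted p between 0.531 and 0.984.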

How the data were processed

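Total RNA of mouse liver was sequenced in 14 libraries. Per the submitters' processing notes, HISAT2 2.0.5, featureCounts 1.5.0-p3 and GRCm38 were used; the annotation, the strand setting and the treatment of reads that fit several genes are not given in the sources used here. The authors deposited whole fragment counts per gene, without scaling, and FPKM values scaled to gene length and library. The counts were tested, and FPKM served only to compare levels between genes. The gene length column, in bases, was deposited by the authors and used as given.

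In edgeR 4.0.16 under R 4.3.3, all 14 libraries and 5 groups were fitted together (TMM scaling, filterByExpr, robust quasi-likelihood F test, 2-sided, Benjamini-Hochberg over 17874 genes, threshold 0.05, residual df 9, biological coefficient of variation 0.442). The SE of a log2 fold change is its size divided by the square root of F, and a fold change smaller than its own SE is not given as one. Levels are TMM-scaled CPM, and correlations used log2 CPM with a prior count of 2. The fit was tested on simulated data with known changes. Library totals of 14745140 to 19480538 counts set the precision of low genes such as Apoc2.

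All 10 members are named. From each list, every gene past the threshold is named in a comparison where 6 or fewer passed, otherwise up to 3 rising and 3 falling with the smallest p, shortened here to those with a bearing on the members; for each member the 2 protein-coding genes of at least 5 CPM with the most similar levels, and the genes that overlap it. Cidec, Malat1, Saa1, Lpl levels and Hnf4a were singled out after their values were seen. The members and lists were chosen with earlier results of these data known.

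Alternatives were RLE and upper-quartile scaling, 2 other low-count filters, DESeq2 1.42.0, limma-voom (limma 3.58.1) with quality weights, a fit of only the compared groups, a block for the replicate number, each library left out, and non-tumour 1 left out together with tumour 1. For the gene lists, leaving out wild-type male 3 or both libraries of number 1 was chosen after seeing the data. Same-numbered tumour and non-tumour libraries deviated together from their group means (correlations of 0.503, 0.466 and 0.294 over 3469 genes), and the block may pair them. Tumour and non-tumour libraries of different number reached at most 0.119. Numbers 2 and 3 of non-tumour females and knockout males, different animals by sex, reached 0.448 and 0.469. Libraries of different number were as high in other groups: non-tumour female 2 and knockout male 1 had 0.487, and wild-type male 3 and knockout male 2 had 0.465. Wild-type female 2 and knockout male 2, of the same number, had −0.366. RefSeq promoters (GRCm38.p6) and GENCODE M21 gene models gave sequences and exon overlaps. Values of some genes counted in the gene lists are not reported here.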

Additional observations from a re-analysis of the deposited data

Results flagged for a closer look

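Apoc2 stood out because its knockout effect passed the test for a difference between the sexes, as did 10.9% of all genes. The log2 fold change of non-tumour knockout against wild-type females, minus that of knockout against wild-type males, was −1.91 ± 0.55 (edgeR adjusted p = 0.0375). The call held when wild-type male 2 or knockout male 3 was left out and was lost without any other library. It was also lost with upper-quartile scaling and with the replicate block. Apoc2 was lower in all 3 non-tumour knockout female libraries than in both wild-type females, where 49.7% of all genes did not overlap. Knockout and wild-type males overlapped. Apoc2 shares 79.46% of its exonic bases with Gm44805, a gene with counts in 1 library.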

How the results depend on the processing

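Over 7 comparisons, 34 of the 70 fold changes of members exceeded their own SE, and 1 of these changed direction: that of Apoa4 in non-tumour knockout against wild-type females was −0.50 without non-tumour 1 (−0.50 to 1.61 over the libraries left out) and −0.50 with both libraries of number 1 left out. The other 36 were smaller than their SE, 25 of them changed sign in some setting and 0 passed the threshold in any. RLE scaling and a filter of 1 CPM changed no count of members called. Upper-quartile scaling left 0 for the difference between the sexes. Without a low-count filter 2 members passed in tumour against non-tumour tissue, 2 in the difference between the sexes, 3 in tumours against wild-type females (Apom added, adjusted p = 0.0283) and 3 in wild-type males against females (Mttp added, 0.0474), and in DESeq2 1 and 2, with 6 in wild-type males against females. Limma-voom called 0 in knockout against wild-type males, and a fit of the compared groups alone called 2 in the difference between the sexes. With the replicate block 0 passed in non-tumour knockout against wild-type females (Apoc2, adjusted p = 0.0691) and 0 in the difference between the sexes, and no other count changed; same-numbered libraries of those groups share only a number, with correlations of −0.281 and −0.122 in females. With both libraries of number 1 left out, 0 members passed in non-tumour knockout against wild-type females and 1 in tumour against non-tumour tissue. With each library left out in turn, the count ran from 0 to 0 in non-tumour knockout against wild-type females, 0 to 2 in tumours against wild-type females, 0 to 1 in knockout against wild-type males, 0 to 1 in the difference between the sexes and 0 to 7 in wild-type males against females. The cause of these changes was not tested. The number of all genes called moved by over 1.5 times in several settings, left-out libraries among them. In non-tumour knockout against wild-type females it was 743, against 1922 in DESeq2, 3397 in limma-voom and 1739 without a low-count filter. Leaving out non-tumour 1, 2 or 3 gave 198, 921 and 146. Between tumour and non-tumour tissue it was 0, against 27 in DESeq2, 0 in limma-voom and 338 without a low-count filter. Low counts limit Apoc2, with 55 counts in its lowest library.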
